A study of Mus musculus with 16 samples.

Results

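The genes described here serve the B cells, the plasma cells and the epithelial transport of immunoglobulin A (IgA) in the small intestine: Cd79a, Cd79b, Jchain (listed under its older symbol Igj), Pou2af1, Pigr, Derl3, Blk and Cd37. They were found by symbol, current or older, among the 25697 probes of the arrays, which carry 17914 gene symbols. Probes were found for 7 of the 8 genes, 10 probes in all: 3 for Blk, 2 for Cd79b and 1 each for Jchain, Pou2af1, Pigr, Derl3 and Cd37. Cd79a had no probe under its symbol and is not analysed here. The immunoglobulin chains themselves also had 0 probes under the symbols searched and are not analysed here.

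IgA is made by plasma cells in the connective tissue under the intestinal epithelium. These cells arise from B cells, which carry the antigen receptor on their surface, and they release IgA as pairs held together by the joining chain. The epithelial cell takes up the pair with the polymeric immunoglobulin receptor on the side facing the tissue, carries it across and releases it into the gut lumen, so that the antibody's path runs through both an immune cell and an epithelial cell.

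RNA from whole small intestine was measured on Illumina bead arrays in 8 Hnf4aKO and 8 Hnf4aWT mice, with 1 array per mouse. Hnf4aKO mice carried loxP-flanked Hnf4a alleles and the tamoxifen-inducible Cre recombinase of VillinCreERT2, whose villin promoter acts in the intestinal epithelium, while Hnf4aWT mice lacked Cre. The protocol gives the Hnf4aWT mice the loxP-flanked alleles as well, whereas their genotype label reads Hnf4a+/+. All mice of both groups received 1 mg of tamoxifen by gavage on each of 5 days and, 3 weeks later, 14 Gy of whole-body gamma irradiation, and all tissue was taken 96 hours after that. No unirradiated mouse and no Cre-positive mouse with intact Hnf4a was measured, so "detectable" below refers to irradiated tissue alone, and Cre status cannot be told apart from genotype. Ages were not given in the sources used here. The Cre acts in epithelial cells, so B cells and plasma cells of Hnf4aKO mice kept their Hnf4a alleles as far as the promoter's range goes.

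The targeted gene matched the labels. Hnf4a, the nuclear receptor deleted in the epithelium, had a log2 level of 10.17 to 10.71 on the 8 Hnf4aKO arrays, against 11.91 to 12.50 on the 8 Hnf4aWT arrays. Each array detected 12060 to 13656 probes (46.9% to 53.1%). Read from the number that opens each array's name, the arrays lay on 2 slides, with 4 Hnf4aKO and 4 Hnf4aWT arrays on each. Xist, the RNA of the inactive X chromosome, was detected on Hnf4aKO replicate 8 and on no other array. That array also held the lowest level of Jchain, Pou2af1, both Cd79b probes and Derl3, which was not detected there. The member results that moved most without it are given both ways. Correlations between arrays lay between 0.906 and 0.988.

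Of the 10 member probes, 5 had a detection p under 0.05 on 6 or more of the 16 arrays, the condition for testing. Of all probes on the array, 52.4% met it. These 5 probes stand for 4 genes: Pigr, Jchain, Pou2af1 and Cd79b. Pigr, Pou2af1 and the brighter Cd79b probe were detected on all 16 arrays, as were 39.2% of all probes. Jchain was detected on 7 Hnf4aKO and 8 Hnf4aWT arrays, and the array that missed it was Hnf4aKO replicate 8. Transcripts of Pou2af1 and Cd79b were thus still measurable in every mouse of both genotypes 96 hours after irradiation, and those of Jchain in all mice but 1.

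The other probes lay near the detection limit or below it. The dimmer Cd79b probe was detected on 3 Hnf4aKO and 3 Hnf4aWT arrays. Derl3, an endoplasmic reticulum membrane protein that helps export misfolded proteins for degradation, was detected on 2 Hnf4aKO and 3 Hnf4aWT arrays. Cd37, a tetraspanin of mature B cells and other leukocytes, was detected on 1 array of each genotype. The 3 probes of Blk, a SRC family kinase of the B cell receptor pathway, were detected on 0 of 16 arrays, as were 34.9% of all probes on the array. With a stricter detection p under 0.01 on at least 6 arrays, 4 member probes remained, 1 for each of the 4 genes, against 44.6% of all probes. In whole tissue, fewer cells of a type and less RNA per cell cannot be told apart, and a probe under the limit does not show that the gene was silent.

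**Figure D1:**
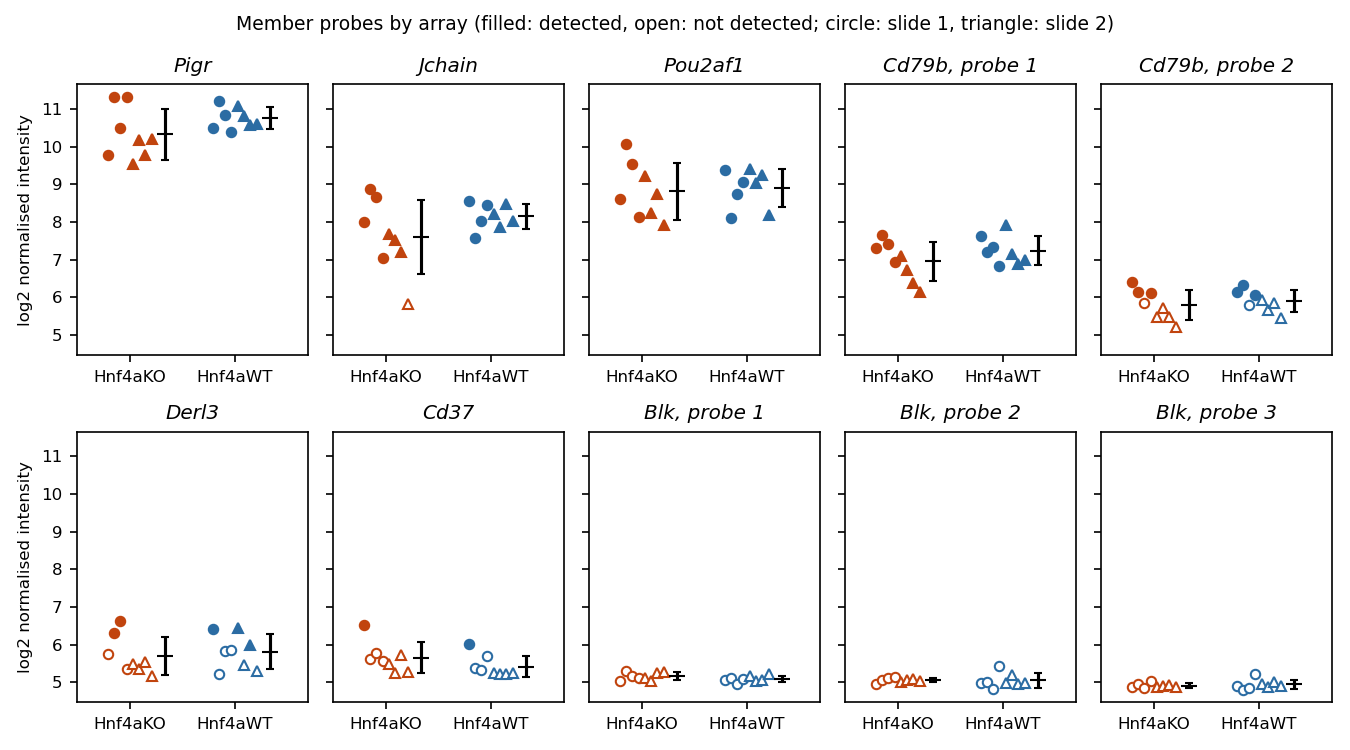
Log2 normalised intensity (vertical axis) of the 10 member probes on each array of Hnf4aKO (left in each panel) and Hnf4aWT mice; filled points were detected at p under 0.05, open points were not, circles lie on slide 1 and triangles on slide 2, and the bars beside the points give the mean and SD (n = 8 each). The Hnf4aKO points of Pigr spread from 9.55 to 11.33, wider than the Hnf4aWT points from 10.39 to 11.22, and every Blk point is open.

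Knockout was set against wildtype for the 4 genes that could be tested, and 0 of the 4 passed. Across the array, limma called 3115 of 10143 tested genes at an adjusted p under 0.05 (30.7%), of which 1374 were higher (13.5% of those tested) and 1741 lower (17.2%) in Hnf4aKO tissue. With median scaling in place of quantile normalization the split was 872 higher and 1825 lower. At an unadjusted p under 0.05, again 0 of the 4 members passed limma's test. All 4 differences had a negative sign, but each 95% interval included 0. All log2 differences are Hnf4aKO minus Hnf4aWT with their standard error (SE), every adjusted p is limma's with Benjamini-Hochberg adjustment over the 10143 genes, and 95% intervals are not adjusted.

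Pigr encodes the polymeric immunoglobulin receptor and is the epithelial member of the set. Its log2 level was 9.55 at the lowest, 10.19 at the median and 11.33 at the highest in Hnf4aKO tissue, against 10.39, 10.71 and 11.22 in Hnf4aWT tissue. The groups overlapped, with 5 Hnf4aKO mice below the lowest Hnf4aWT mouse and 2 above the highest. The means were 10.33 ± 0.68 in Hnf4aKO and 10.75 ± 0.29 in Hnf4aWT tissue (SD, n = 8 each). The difference was -0.42 (SE 0.24; 95% interval -0.94 to 0.09; limma adjusted p = 0.200), a linear ratio of 0.745. A decrease of nearly 1 log2 unit and a level equal to wildtype both lie within or at the edge of that interval, so the data show neither a change nor its absence.

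The estimated Pigr difference was larger on slide 2 than on slide 1, but the difference between the slides did not pass. On slide 1 the mean was 10.73 in Hnf4aKO and 10.73 in Hnf4aWT tissue, a difference of -0.0052. On slide 2 it was 9.92 in Hnf4aKO and 10.77 in Hnf4aWT tissue, a difference of -0.84, and there the 4 Hnf4aKO mice all lay below the 4 Hnf4aWT mice. Fitted on slide 2 alone, Pigr passed limma's test (adjusted p = 0.0216), in a fit that called 7.2% of tested genes lower. Without Hnf4aKO replicate 8 the slide 2 difference was -0.93 (limma adjusted p = 0.0292; 4.2% of tested genes lower). The difference between the slides itself was -0.84 (slide 2 minus slide 1; SE 0.43; unadjusted p = 0.0675, limma adjusted p = 0.993) and did not pass. Of the 10143 tested genes, 0 passed this limma test after adjustment and 314 had an unadjusted p under 0.05. The slide test was added after the values had been seen.

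The promoter of Pigr is shown because Pigr is the member known from epithelial cells, the cells in which Hnf4a was deleted. The 250 bases before its start, from RefSeq (GRCm38.p6, chr1:130826434-130826683, plus strand), hold neither the HNF4 motif CAAAGTCCA nor the interferon-stimulated response element GAAANNGAA on either strand. Over 32851 promoter windows of this length, 0.384% held the HNF4 motif and 7.13% the interferon-stimulated element. The gene itself spans bases 130826684 to 130852249 of chromosome 1. The absence of these letters from this window says nothing about binding elsewhere.
Pigr: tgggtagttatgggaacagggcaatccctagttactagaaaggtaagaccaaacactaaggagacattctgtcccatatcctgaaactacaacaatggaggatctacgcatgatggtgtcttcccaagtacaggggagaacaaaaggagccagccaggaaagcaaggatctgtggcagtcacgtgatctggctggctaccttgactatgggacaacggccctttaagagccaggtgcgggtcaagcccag

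Jchain encodes the joining chain that links IgA units and is made by plasma cells. Its log2 level was 5.82, 7.61 and 8.88 (lowest, median, highest) in Hnf4aKO tissue, against 7.59, 8.12 and 8.56 in Hnf4aWT tissue. The Hnf4aKO mice were spread to both sides of the Hnf4aWT mice, with 4 below all of them and 2 above all of them. Means were 7.60 ± 0.97 in Hnf4aKO and 8.15 ± 0.34 in Hnf4aWT tissue (SD, n = 8 each), and the difference was -0.55 (SE 0.33; 95% interval -1.25 to 0.15; limma adjusted p = 0.227), a linear ratio of 0.685. Without Hnf4aKO replicate 8, on which Jchain was not detected, the difference was -0.29 (limma adjusted p = 0.434).

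As with Pigr, the estimated Jchain difference was larger on slide 2 than on slide 1, but the difference between the slides did not pass. The slide 1 means were 8.15 in Hnf4aKO and 8.16 in Hnf4aWT tissue, and the slide 2 means were 7.06 in Hnf4aKO and 8.14 in Hnf4aWT tissue. The differences were -0.010 on slide 1 and -1.08 on slide 2, and the difference between the slides was -1.07 (SE 0.59; unadjusted p = 0.0881, limma adjusted p = 0.993). On slide 2 all 4 Hnf4aKO mice were again below the 4 Hnf4aWT mice. Without Hnf4aKO replicate 8 the slide 2 difference of Jchain was -0.67 (limma adjusted p = 0.0639).

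Pou2af1 encodes a coactivator that binds the octamer factors on DNA and is needed for B cell responses. Its log2 level was 7.93, 8.67 and 10.08 (lowest, median, highest) in Hnf4aKO tissue, against 8.12, 9.06 and 9.41 in Hnf4aWT tissue. The groups overlapped over nearly their whole range, with 1 Hnf4aKO mouse below and 2 above all Hnf4aWT mice. Means were 8.81 ± 0.75 in Hnf4aKO and 8.90 ± 0.51 in Hnf4aWT tissue (SD, n = 8 each). The difference was -0.09 (SE 0.29; 95% interval -0.70 to 0.53; limma adjusted p = 0.852), and its sign turned on slide 1 (0.27, against -0.44 on slide 2) and without Hnf4aKO replicate 4 (0.0073) or replicate 8 (0.039).

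Cd79b encodes a signalling chain of the B cell receptor and was read by 2 probes. The brighter probe had log2 levels of 6.16, 7.02 and 7.67 (lowest, median, highest) in Hnf4aKO tissue, against 6.82, 7.19 and 7.93 in Hnf4aWT tissue, with 3 Hnf4aKO mice below all Hnf4aWT mice and 0 above. Means were 6.96 ± 0.52 in Hnf4aKO and 7.24 ± 0.38 in Hnf4aWT tissue (SD, n = 8 each), and the difference was -0.28 (SE 0.21; 95% interval -0.73 to 0.17; limma adjusted p = 0.341). It was 0.085 on slide 1 and -0.64 on slide 2, and -0.16 without Hnf4aKO replicate 8. The dimmer probe, detected on 6 arrays, had levels of 5.21, 5.78 and 6.41 in Hnf4aKO and 5.45, 5.89 and 6.33 in Hnf4aWT tissue, and its difference of -0.11 had the same sign (limma adjusted p = 0.664 over all kept probes).

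The untested members were not detected on most arrays. Derl3 had log2 levels of 5.17, 5.51 and 6.62 (lowest, median, highest) in Hnf4aKO and 5.21, 5.85 and 6.44 in Hnf4aWT tissue. Cd37 had 5.25, 5.60 and 6.53 in Hnf4aKO and 5.22, 5.28 and 6.01 in Hnf4aWT tissue. The groups overlapped for both genes, and the highest Cd37 value, on Hnf4aKO replicate 1, stood apart from the other 7 Hnf4aKO arrays. The 3 Blk probes lay between 4.84 and 5.29 in Hnf4aKO and between 4.79 and 5.44 in Hnf4aWT tissue, where they were not told apart from the negative control beads. With no detection filter limma gave adjusted p-values of 0.816 for Derl3, 0.408 for Cd37 and 0.527 for Blk.

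A probe that the array file defines as a predicted gene similar to CD79A, LOC100047815, was picked out by its likeness to Pou2af1 and is not counted as a member. It was detected on 6 Hnf4aKO and 7 Hnf4aWT arrays. Its log2 level was 5.54, 6.33 and 7.76 (lowest, median, highest) in Hnf4aKO tissue, against 5.75, 6.48 and 7.35 in Hnf4aWT tissue. The ranges overlapped, and the difference was -0.11 (SE 0.34; 95% interval -0.82 to 0.60; limma adjusted p = 0.833). It was 0.57 on slide 1 and -0.79 on slide 2, or -0.68 on slide 2 without Hnf4aKO replicate 8. Over both slides its sign turned without Hnf4aKO replicate 6 (0.0092), Hnf4aKO replicate 8 (0.015) or Hnf4aWT replicate 7 (0.00037).

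Within Hnf4aKO tissue, the plasma cell and B cell members varied together from mouse to mouse. Over the 8 Hnf4aKO mice Jchain correlated with Cd79b (Pearson r = 0.92, exact permutation p = 0.00119, adjusted 0.0143; Spearman rho = 0.93, exact permutation p = 0.00223) and with Pou2af1 (Pearson r = 0.86, exact permutation p = 0.00541, adjusted 0.0324; Spearman rho = 0.88, exact permutation p = 0.00724). These p-values are two-sided and adjusted over the 12 correlations computed among the 4 tested members in both genotypes. Without the 2 mice farthest from the median of Jchain, the r was 0.79 with Cd79b and 0.74 with Pou2af1. Mice with much Jchain RNA were thus the same mice that had more Pou2af1 and Cd79b RNA in this group.

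Over the 8 Hnf4aWT mice, the Pearson r of Jchain was 0.74 with Pou2af1 (exact permutation p = 0.0375, adjusted 0.0901; Spearman rho = 0.76, exact permutation p = 0.0368) and 0.02 with Cd79b (exact permutation p = 0.964; Spearman rho = -0.07, exact permutation p = 0.882). Without the 2 mice farthest from the median of Jchain, the r with Pou2af1 in Hnf4aWT mice was 0.46. Whether the genotypes differ in these correlations was not tested. Pou2af1 and Cd79b had r = 0.78 in Hnf4aKO mice (exact permutation p = 0.0251, adjusted 0.0845; Spearman rho = 0.79, exact permutation p = 0.0279), and r = 0.49 without the 2 farthest mice.

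Pigr showed no correlation with Jchain that passed after adjustment. Its Pearson r was 0.23 in Hnf4aKO mice (exact permutation p = 0.586; Spearman rho = -0.02, exact permutation p = 0.977) and -0.77 in Hnf4aWT mice (exact permutation p = 0.0282, adjusted 0.0845; Spearman rho = -0.76, exact permutation p = 0.0368). The negative value in Hnf4aWT mice did not pass after adjustment and was -0.49 without the 2 farthest mice. A slide holds only 4 mice of a genotype, too few for a correlation of its own. With the means of genotype and slide removed over all 16 arrays, r was 0.80 for Jchain and Pou2af1, 0.60 for Pou2af1 and Cd79b, 0.55 for Jchain and Cd79b, -0.34 for Jchain and Pigr, -0.14 for Pou2af1 and Pigr and 0.04 for Cd79b and Pigr.

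**Figure D2:**
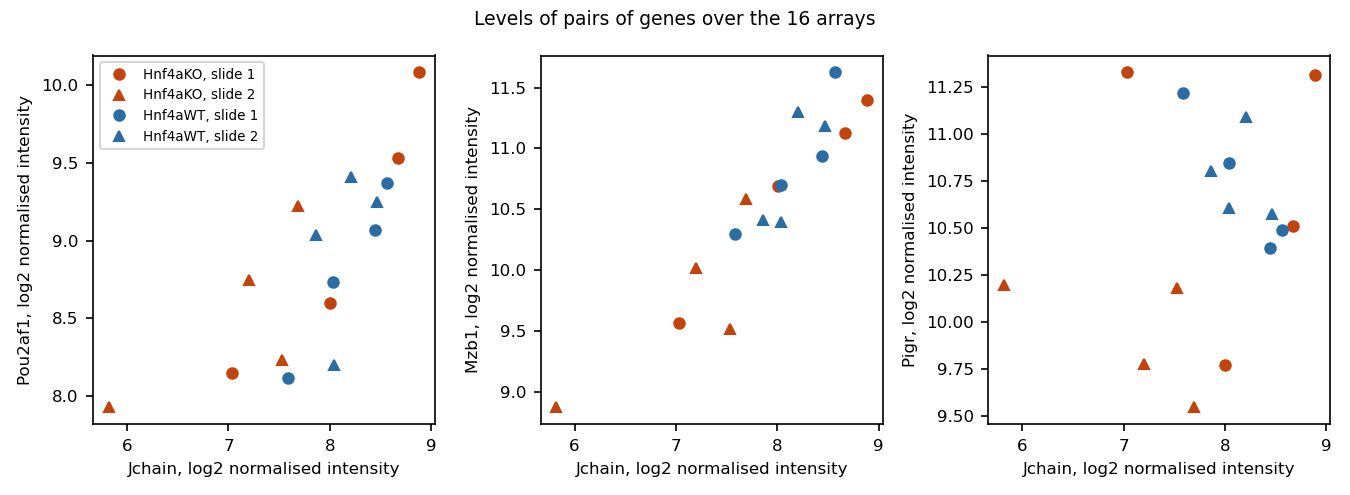
Log2 normalised intensity of Jchain (horizontal axes) against Pou2af1, Mzb1 and Pigr (vertical axes) on the 16 arrays, with Hnf4aKO in red and Hnf4aWT in blue, circles for slide 1 and triangles for slide 2. Pou2af1 climbs with Jchain, while the Pigr points show no common slope (r = 0.23 in Hnf4aKO and -0.77 in Hnf4aWT mice). Mzb1 climbs too, but it was picked as the non-member gene most like Jchain on these same arrays.

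The promoters of Jchain and Pou2af1 are shown because the levels of these members varied together. Both are the 250 bases before the gene's start, from RefSeq (GRCm38.p6): chr5:88527898-88528147 on the minus strand for Jchain and chr9:51213440-51213689 on the plus strand for Pou2af1. Capitals mark CCACG or its reverse complement, the short end of the endoplasmic reticulum stress element, a binding site of secretory programme factors. Pou2af1 held it at bases -241 and -58 from the start, both on the other strand, and Jchain did not hold it. The octamer ATGCAAAT, through which Pou2af1's partners bind DNA, was in neither, and 1.60% of all promoter windows held it.
Jchain: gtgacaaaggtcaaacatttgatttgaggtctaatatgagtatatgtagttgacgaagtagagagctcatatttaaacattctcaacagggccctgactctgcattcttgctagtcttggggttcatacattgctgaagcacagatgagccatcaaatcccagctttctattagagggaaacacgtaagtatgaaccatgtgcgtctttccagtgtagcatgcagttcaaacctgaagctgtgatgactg
Pou2af1: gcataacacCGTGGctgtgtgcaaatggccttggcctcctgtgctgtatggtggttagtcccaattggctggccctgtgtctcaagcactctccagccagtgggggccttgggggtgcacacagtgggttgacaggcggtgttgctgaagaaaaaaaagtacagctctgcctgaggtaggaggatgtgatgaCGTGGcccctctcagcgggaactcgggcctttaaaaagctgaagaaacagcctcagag

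Promoters were also searched for Cd79a, Derl3 and Cd37, so for 6 of the 8 genes. CCACG was in 4 of the 6 and in 28.3% of all 32851 windows. Derl3 held it at -198, -169 and -156. The Cd37 window, chr7:45238840-45239089, lies inside the span given for the gene, 45233632 to 45239340, rather than before it. Its match at -229 is among those counted. The EBF motif TCCCNNGGG, of a factor of early B cell development, was in 0 of the 6 and in 5.60% of all windows, and the octamer, HNF4 and interferon-stimulated motifs were likewise in 0 of the 6. Both strands were searched, and a match describes these letters alone.

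The non-member genes whose levels were most like each tested member were found over the 16 arrays after removing each genotype's mean. Slide means were not removed. Closest to Jchain were Mzb1 (r = 0.92), a chaperone of antibody assembly in B and plasma cells, Rrad (r = 0.84) and Foxk1 (r = 0.81). The likeness of Foxk1 was 0.90 among Hnf4aKO mice and 0.19 among Hnf4aWT mice. Closest to Pou2af1 were Prg2 (r = 0.94), LOC100047815 (r = 0.91) and Mzb1 (r = 0.90). Closest to Cd79b were Slc24a1 (r = 0.84), Ccne1 (r = 0.84) and Foxk1 (r = 0.83), but Slc24a1 was detected on only 3 Hnf4aKO and 3 Hnf4aWT arrays. Closest to Pigr were Hsd17b6, Mogat2 and Guca2b (r = 0.91 each), of which Mogat2 makes diacylglycerol in fat absorption and Guca2b is the hormone uroguanylin. The immune cell members and Pigr therefore had different nearest genes among the 10143 tested.

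Of the nearest genes, Mogat2, Rrad and Ccne1 passed the test, but Rrad did not pass in 13 of 27 alternatives (it was detected on 5 Hnf4aKO arrays and 1 Hnf4aWT array) and Ccne1 in 20 of 28. Mogat2 fell by 1.16 on the log2 scale (SE 0.31; limma adjusted p = 0.00957). Mzb1 had log2 levels of 8.87, 10.30 and 11.40 (lowest, median, highest) in Hnf4aKO and 10.30, 10.82 and 11.63 in Hnf4aWT tissue, and its difference was -0.64 (SE 0.32; limma adjusted p = 0.146). The difference of Mzb1 was -0.20 on slide 1 and -1.08 on slide 2, and its lowest level was on Hnf4aKO replicate 8. Leaving out 1 mouse at a time gave -0.81 to -0.44 for Mzb1. Hsd17b6 had a difference of -0.91 (limma adjusted p = 0.0605) and Guca2b one of -0.27 (limma adjusted p = 0.393).

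Other genes of B cell identity and receptor signalling were detected about as often as the array as a whole. Of 26 listed genes with a probe, 12 were tested (46.2%, against 56.6% of all gene symbols), and 8 were detected on no array (30.8%, against 31.1%), among them Ms4a1, which encodes the surface marker CD20, and Pax5, the lineage factor of B cells, with Syk, Pou2f2, Cr2, Fcmr and Tnfrsf13c. Of the 12 tested, 2 were higher and 2 lower, with a median difference of -0.03 against -0.02 for all tested genes. Of all tested genes, 13.5% were higher and 17.2% lower, and the counts of the lists below stand beside the same shares. Btk, the kinase downstream of the B cell receptor that myeloid cells also use, rose by 0.78 (SE 0.15; limma adjusted p = 0.000800), and Cd74, the invariant chain of antigen-presenting cells, rose by 0.51 (SE 0.10; limma adjusted p = 0.00155). Bcl11a, a lymphoid transcription factor, fell by 0.48 (SE 0.13; limma adjusted p = 0.0133), and Plcg2, a phospholipase of receptor signalling, fell by 0.40 (SE 0.12; limma adjusted p = 0.0152). The rise of Cd74 did not pass under 75th percentile scaling (0.33, limma adjusted p = 0.0835) or median scaling (0.26, limma adjusted p = 0.237).

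Genes of the plasma cell and its secretory programme followed no single direction. Of 17 with a probe, 13 were tested (76.5%, against 56.6% of all gene symbols), with 1 higher, 2 lower and a median difference of -0.11. Prdm1, Tnfrsf13b and Slamf7 were detected on no array. Fkbp11, a prolyl isomerase of secretory cells, was at 9.59, 10.10 and 10.34 (lowest, median, highest) in Hnf4aKO tissue, against 10.58, 10.72 and 11.01 in Hnf4aWT tissue. The groups did not overlap, and Fkbp11 fell by 0.69 (SE 0.10; limma adjusted p = 0.000159). Tnfrsf17, the survival receptor BCMA of plasma cells, was detected on 2 Hnf4aKO and 7 Hnf4aWT arrays and was lower in Hnf4aKO tissue (limma adjusted p = 0.0104). Its difference of -0.67 (SE 0.18) is set against a group mostly at background, and it was -0.34 without background correction. Sdc1, a plasma cell surface marker that epithelial cells also carry, rose by 0.51 (SE 0.12; limma adjusted p = 0.00451).

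**Figure D3:**
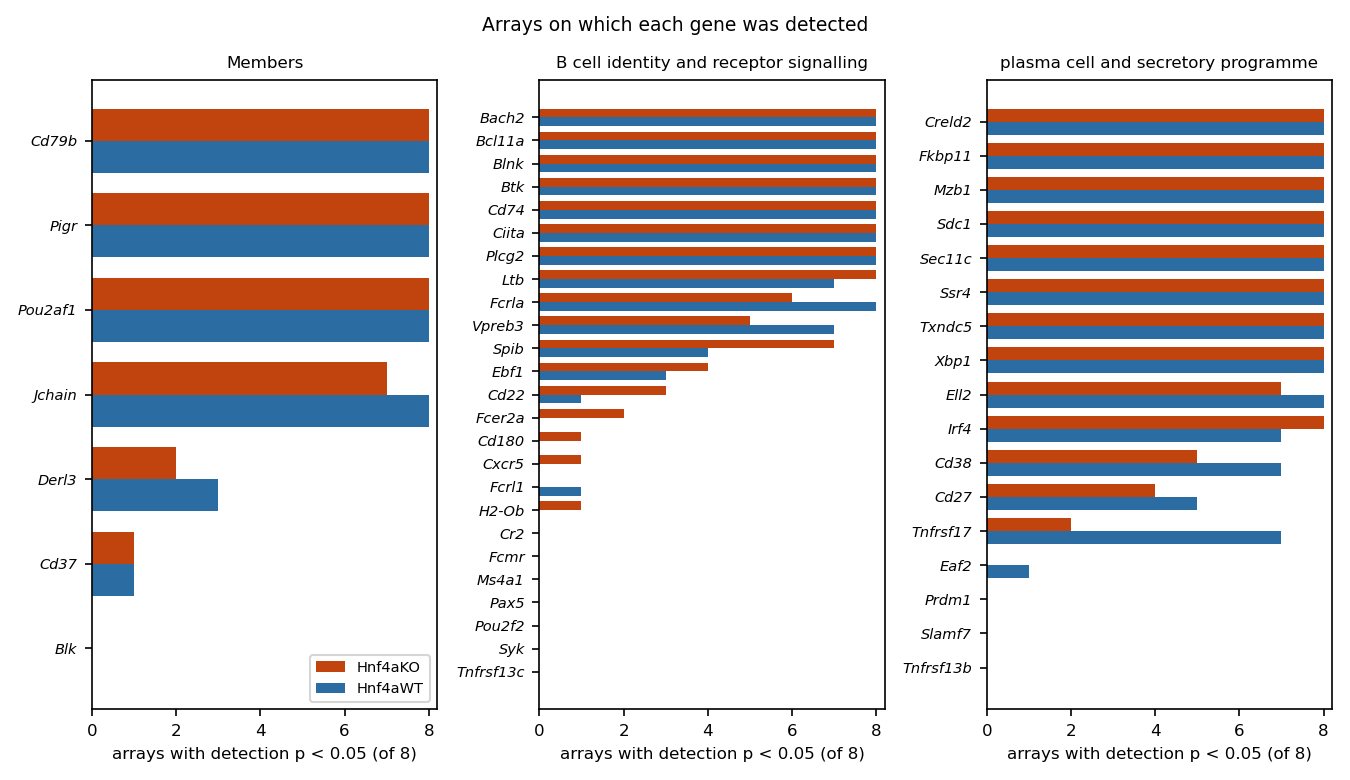
Number of arrays (horizontal axis, up to 8 per genotype) on which the member genes and the B cell and plasma cell genes reported here were detected at p under 0.05, with Hnf4aKO above Hnf4aWT for each gene. Pigr, Pou2af1 and Cd79b reach 8 in both genotypes and Blk 0 in both, and 7 of the B cell genes shown have no bar.

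**Figure D4:**
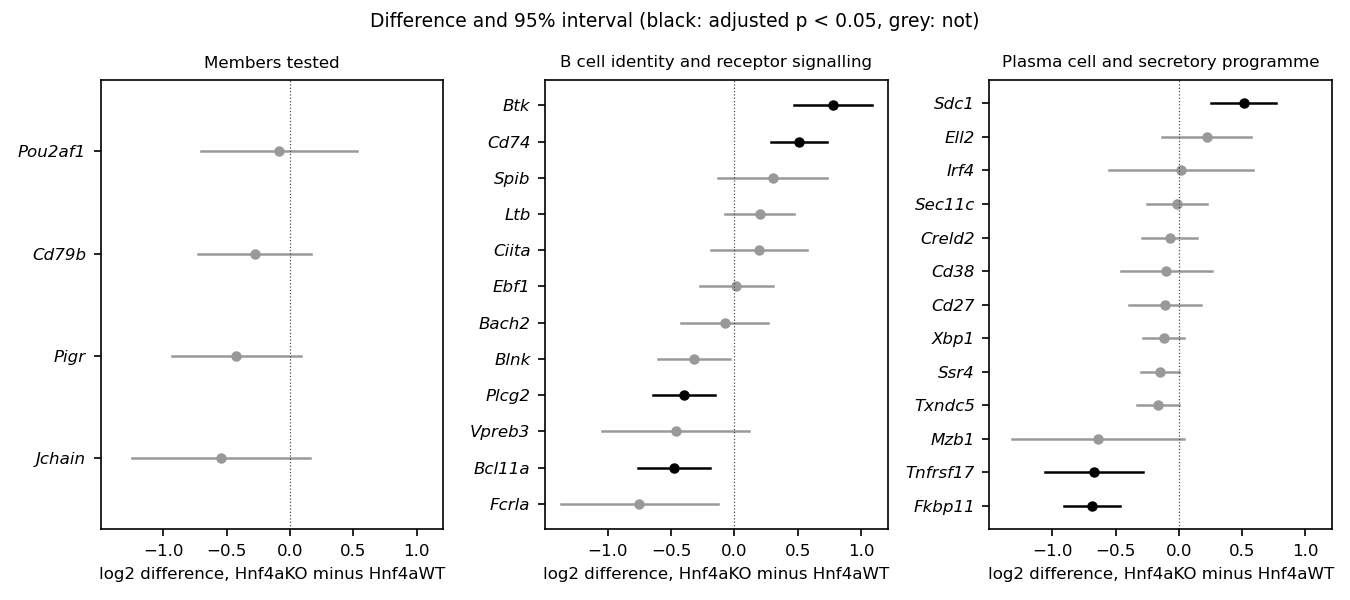
Log2 difference (Hnf4aKO minus Hnf4aWT, horizontal axis) with its unadjusted 95% interval for the 4 tested members, the 12 tested B cell genes and the 13 tested plasma cell genes; black marks a limma adjusted p under 0.05. The intervals of all 4 members cross 0, while Btk at 0.78 and Fkbp11 at -0.69 lie clear of it.

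Genes that induce IgA switching or draw IgA plasma cells to the gut had the largest median difference of the 8 pathway lists. Of 11 tested, 4 were higher and 1 lower, with a median difference of 0.51. Of the 21 with a probe, 8 were detected on no array (38.1%, against 31.1% of all gene symbols). Ccl28, the epithelial chemokine that attracts IgA plasma cells, had log2 levels of 5.11, 5.22 and 5.57 (lowest, median, highest) in Hnf4aKO tissue, against 5.91, 7.50 and 8.50 in Hnf4aWT tissue. It was detected on 0 of 8 Hnf4aKO and on 8 of 8 Hnf4aWT arrays. The groups did not overlap, and Ccl28 was lower in Hnf4aKO tissue. The difference was -2.08 (SE 0.27; limma adjusted p = 4.05e-05), and -1.19 without background correction. On the background corrected scale, Ccl28 was at least 2.73-fold lower in Hnf4aKO tissue. This is a bound: on each Hnf4aKO array the probe was given at least the dimmest signal that counted as detected there. Ccr10, its receptor on plasma cells, was detected on 0 of 16 arrays.

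The 4 genes of this list that rose have different roles. Tgfb1, the cytokine that directs the IgA switch, rose by 0.95 (SE 0.16; limma adjusted p = 0.000283). Cd40, the receptor for T cell help, rose by 0.91 (SE 0.15; limma adjusted p = 0.000320), and Tnfsf13b, the B cell survival factor BAFF, rose by 0.85 (SE 0.21; limma adjusted p = 0.00498). Madcam1, the vessel ligand of gut-homing lymphocytes, which was named after its values were seen, rose by 0.80 (SE 0.18; limma adjusted p = 0.00350). Its difference was 1.32 on slide 1 and 0.27 on slide 2 (limma adjusted p = 0.323 on slide 2 alone). Limma's test of the difference between the slides called 0 of 10143 genes at an adjusted p under 0.05, so Madcam1 did not pass it.

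Regulators of Pigr transcription had 6 of 14 tested genes higher, 1 lower and a median difference of 0.23, beside 13.5% higher and 17.2% lower of all tested genes. The lower gene was Stat6, which fell by 0.43 (SE 0.13; limma adjusted p = 0.0223). Tlr4, a receptor for bacterial lipopolysaccharide, was detected on 8 Hnf4aKO arrays and 1 Hnf4aWT array and was higher in Hnf4aKO tissue (limma adjusted p = 1.38e-05). Its difference of 1.43 (SE 0.17) is set against a group mostly at background, and it was 0.76 without background correction. Ifngr1, a chain of the interferon-gamma receptor, rose by 0.51 (SE 0.08; limma adjusted p = 0.000233), and Irf1, an interferon-induced activator of Pigr, rose by 0.43 (SE 0.09; limma adjusted p = 0.00122). Neither the rise of Irf1 nor that of Ifngr1 passed under median scaling (0.19 and 0.33; limma adjusted p = 0.429 and 0.0946), and Irf1 also did not pass under 75th percentile scaling (0.26; limma adjusted p = 0.144).

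The transport route that Pigr uses had members on both sides. Of 13 tested transcytosis genes, 1 was higher and 3 lower, with a median difference of 0.12. Rab17, an epithelial GTPase of the transcytotic route, had log2 levels of 5.71, 6.16 and 6.55 (lowest, median, highest) in Hnf4aKO tissue, against 6.37, 7.35 and 8.09 in Hnf4aWT tissue. The groups overlapped at their edge, and Rab17 fell by 1.27 (SE 0.21; limma adjusted p = 0.000346), or by 0.70 without background correction. Rab11fip5, an adaptor of recycling endosomes, rose by 1.02 (SE 0.22; limma adjusted p = 0.00211). The clathrin adaptor subunits Ap1b1 and Ap1m2 fell by 0.36 (SE 0.09; limma adjusted p = 0.00602) and 0.29 (SE 0.10; limma adjusted p = 0.0286), and Ap1m2 did not pass in 6 of the 16 fits that each leave out 1 mouse.

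In the lists built around the 3 untested members, Derl3, Cd37 and Blk, 6 genes passed. Of 16 tested genes of endoplasmic reticulum degradation, the pathway of Derl3, 2 were higher and 1 lower, with a median difference of -0.05. Dnajb9, a chaperone cofactor, rose by 0.41 (SE 0.12; limma adjusted p = 0.0156), Erlec1, a lectin of the pathway, rose by 0.29 (SE 0.10; limma adjusted p = 0.0347) and Edem2, a mannosidase of the pathway, fell by 0.25 (SE 0.08; limma adjusted p = 0.0229). Of 7 tested tetraspanins related to Cd37, 3 were higher and 0 lower, with a median of 0.23: Cd53, the leukocyte tetraspanin, rose by 0.90 (SE 0.22; limma adjusted p = 0.00549), Cd9 by 0.40 (SE 0.10; limma adjusted p = 0.00806) and Cd151 by 0.23 (SE 0.08; limma adjusted p = 0.0379). Of 4 tested SRC family kinases related to Blk, 0 passed limma's test, and the smallest p belonged to Frk (0.31; limma adjusted p = 0.398). Dnajb9, Erlec1, Cd9 and Cd151 did not pass under 75th percentile or median scaling, and Erlec1 and Cd151 also did not pass in 8 of the 16 fits that each leave out 1 mouse.

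Markers of other cells moved beside these lists, and their part in the results was not tested. Their counts stand beside 13.5% higher and 17.2% lower among all tested genes. Of 14 tested macrophage and dendritic cell markers, all 14 of the list, 12 were higher and 0 lower in Hnf4aKO tissue, and their mean log2 level ranged from 9.37 to 10.69 in Hnf4aKO and from 8.45 to 9.38 in Hnf4aWT tissue. All 5 tested pan-leukocyte markers were higher (mean level 10.12 to 10.97 in Hnf4aKO, 9.49 to 10.19 in Hnf4aWT tissue). T and NK cell markers had 0 of 10 higher and 1 lower, Cd3e, which fell by 0.58 (SE 0.17; limma adjusted p = 0.0181), with mean levels of 6.63 to 7.37 in Hnf4aKO and 6.63 to 7.44 in Hnf4aWT tissue. Pan-epithelial markers had 2 of 10 higher and 0 lower (11.94 to 12.34 in Hnf4aKO, 11.74 to 12.09 in Hnf4aWT tissue), endothelial markers 6 of 10 higher and 0 lower (8.14 to 8.94 in Hnf4aKO, 7.63 to 8.16 in Hnf4aWT tissue), plasmacytoid dendritic cell markers 3 of 5 higher and 0 lower, and Peyer patch markers 1 of 4 higher and 0 lower. Adipocyte markers had 1 of 6 higher and 0 lower and ranged widely between mice (6.92 to 12.74 in Hnf4aKO, 6.92 to 10.62 in Hnf4aWT tissue). Smooth muscle markers had 0 of 8 and exocrine pancreas markers 0 of 3 past the threshold, and 5 of the 9 pancreas markers with a probe were detected on no array.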

How the data were processed

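The deposited intensity of each probe is not normalized, and the detection p-value beside it is likewise as the authors deposited it, per the file headers; its step size fits 798 negative control beads. Which software read the arrays is not stated in these sources. The deposited series table also holds an intensity per probe, on a linear scale with medians of 158.5 to 159.0 and sorted columns that differ by at most 2.66%, with no method named, and served only as an alternative.

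Intensities were background corrected with limma 3.58.1 in R 4.3.3 (normexp, negative controls inferred from the detection p-values, offset 16), quantile normalized and converted to log2, which shrinks the fold changes of dim probes. Probes detected at p under 0.05 on at least 6 of 16 arrays were kept (13460), and the brightest per gene was tested (10143 genes) by lmFit and eBayes with genotype alone as a term, Benjamini-Hochberg adjustment and a threshold of 0.05. Symbols were updated through RefSeq (GRCm38.p6): 20733 probes carried a current symbol, 3903 a unique synonym and 1061 neither. The number of arrays limits the precision. In a simulated version of this comparison with 13653 genes tested, 28 of 44 genes that reached the test were called at a log2 change of -1, and 11 of 49 at -0.5. Only 50 genes were given each change there, far fewer than the 3115 called here. The adjusted threshold was therefore harder to reach in the simulation, and its shares are not those of the real comparison. The titles number the replicates, and they were taken as separate mice, as the protocols speak of animals.

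The members and gene lists were chosen with earlier results of these data known. Named were all members, up to 4 genes per list past the threshold with the largest change (or the one with the smallest p), and the 3 genes most like each tested member; some genes that this rule picks are not reported here. Alternatives covered background correction, offset, normalization, the deposited series table, detection filters, probe choice, slide, replicate number and leaving out each replicate.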

Additional observations from a re-analysis of the deposited data

Results flagged for a closer look

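Among 72 sets of 8 arrays checked for a single value far from the rest, 2 held one, and chance alone gives about 1 in 20. Cd37 on Hnf4aKO replicate 1 had a log2 level of 6.53, with the nearest other Hnf4aKO array at 5.79. Ccl28 on Hnf4aKO replicate 8 had a log2 level of 5.57, with the nearest other Hnf4aKO array at 5.29, although Ccl28 was detected on none of the 8 Hnf4aKO arrays.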

How the results depend on the processing

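Of the 4 tested members, 0 were higher under any of the 28 alternatives, and 0 were lower under 27 of them. The exception was slide 2 alone, where 1 was lower (Pigr, -0.84). On slide 1 alone the differences of Cd79b (0.085) and Pou2af1 (0.27) had the opposite sign, as had those of LOC100047815 (0.57) and Guca2b (0.053). Leaving out 1 mouse at a time gave -0.27 to 0.039 for Pou2af1, -0.30 to 0.015 for LOC100047815, -0.38 to -0.16 for Cd79b, -0.73 to -0.29 for Jchain (limma adjusted p 0.0882 to 0.434) and -0.57 to -0.31 for Pigr (0.0622 to 0.353). With each slide alone, 4 against 4 mice, 758 genes passed on slide 1 and 1335 on slide 2, against 3115 with all mice, and 18 and 26 list genes passed, against 60; fewer arrays enter these fits. Leaving out 1 mouse at a time left 2644 to 3368 genes past the threshold. The replicate numbers were not taken as pairs, since no label says what they share and not every same-numbered pair correlated over 0.1 (6 of 8 did, range -0.23 to 0.39). As a hint from the data, 4 of 8 Hnf4aKO arrays were closest to their own number. With the replicate number as a block, 3460 genes, 68 list genes and 0 members passed. The median difference of all genes was -0.02 with quantile normalization and -0.11 with median scaling, so rises of list genes read lower under it. Detectable member probes numbered 5, or 4 under either stricter rule. Erlec1 and Cd151 did not pass in 12 of 28 alternatives and Ap1m2 in 8. No alternative turned the sign of a called list gene named in the text, Cd3e and Madcam1 included, but Stat6 was not checked. Without background correction the differences of dim genes shrank, to -0.33 for Jchain, -0.15 for Cd79b, -0.30 for Bcl11a, -0.36 for Cd3e and 0.45 for Madcam1, with no call changed among these. In the simulation, where far fewer genes were changed than were called here, limma called 11 of 49 genes given a log2 change of -0.5. It called 28 of 44 given -1.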
